A study of Homo sapiens with 24 samples.

Results

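The WNK kinases are the 4 genes WNK1, WNK2, WNK3 and WNK4. They were found by gene symbol among the 62703 Ensembl gene identifiers that were counted in T/C-28a2 cells, an immortalised line of human chondrocytes, and each symbol matched 1 identifier. All 4 had enough reads for the test. The study asked how WNK2 shapes the response of chondrocytes to hyperosmotic stress. Poly(A) RNA was sequenced in 24 libraries, 4 in each of 6 groups.

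The groups cross a WNK2 state with the medium. WT Ctr and WT Sor are unmodified T/C-28a2 cells without and with sorbitol. WNK2 trans Ctr and WNK2 trans Sor are the same wild-type cells carrying a WNK2 expression plasmid, without and with sorbitol. WNK2- Ctr and WNK2- Sor are WNK2 knockout cells, in which exon 2 of WNK2 was deleted with CRISPR/Cas9, without and with sorbitol. Per the methods, cells labelled Sor were kept for 7 days at 400 mOsm, reached by adding sorbitol to 100 mM, and cells labelled Ctr at 300 mOsm. The plasmid was given before that change of medium. Clonal WNK2- lines were grown from single sorted cells, so clone and genotype cannot be told apart, and no group with an empty plasmid was analysed here. Plasmid and chromosomal WNK2 reads also cannot be told apart in counts per gene.

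WNK kinases take their name from a missing lysine (with no lysine, K). The lysine that holds ATP in other kinases sits in the third strand of the kinase fold, and in WNKs a lysine of the glycine-rich loop does this work while a cysteine fills the usual place. Chloride binding keeps WNKs inactive, and hyperosmotic stress activates them. Active WNKs phosphorylate the kinases SPAK (STK39) and OSR1 (OXSR1), which switch on sodium-driven chloride uptake and switch off potassium-chloride export, so that a shrunken cell regains volume. Cartilage is a hyperosmotic tissue, and WNK1 is known as the most widely expressed member, while WNK4 is best known from the kidney.

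The coding sequence of this loop is shown because it is the feature the 4 genes share. In WNK2 it also lies in an exon that holds a start codon, taken here to be the exon the study describes as deleted. Sequences are from GENCODE 29 transcripts on GRCh38 and run 5′ to 3′ on the strand of the gene. Capitals mark the loop lysine codon and, 17 codons later, the cysteine codon.
WNK1: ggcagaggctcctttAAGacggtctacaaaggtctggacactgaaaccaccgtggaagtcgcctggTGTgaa
WNK2: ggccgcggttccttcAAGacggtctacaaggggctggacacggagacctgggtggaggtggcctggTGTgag
WNK3: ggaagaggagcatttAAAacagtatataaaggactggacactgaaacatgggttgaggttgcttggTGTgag
WNK4: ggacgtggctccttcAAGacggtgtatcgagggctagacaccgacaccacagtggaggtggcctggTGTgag

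These 72 bases lie at chr12:754247-754318 on the plus strand in WNK1, at chr9:93185533-93185604 on the plus strand in WNK2, at chrX:54333143-54333214 on the minus strand in WNK3 and at chr17:42781239-42781310 on the plus strand in WNK4, each within 1 coding exon. The lysine is codon 233 of WNK1, 207 of WNK2, 159 of WNK3 and 186 of WNK4. Over these bases WNK1 and WNK2 were 80.6% identical, WNK2 and WNK4 80.6%, and WNK3 and WNK4 69.4%, the lowest of the 6 pairs. Over whole transcripts the longest stretch that any pair shared exactly was 17 bases (WNK1 with WNK2 or WNK4) to 27 bases (WNK4 with WNK2 or WNK3), on either strand. The first coding bases of WNK2, with the start codon in capitals, show where the exon taken to be the deleted one begins to be read.
WNK2 start: ATGgacggcgatggcggccgccgagacgtc

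This start codon lies at chr9:93184930-93184932, in a 681-base exon (chr9:93184930-93185610) that is exon 1 of the longest annotated coding transcript. The study calls the deleted exon exon 2 and places the start codon in it, so it was taken to be this one. WNK2 has 2 distinct annotated start codons, and the match was not tested. The 681-base exon makes up 5.16% of the exon bases of WNK2, so the counts below come mostly from the rest of the gene and do not separate transcripts with and without it.

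The genes span chr12:752593-911452 (WNK1, ENSG00000060237), chr9:93184916-93320572 (WNK2, ENSG00000165238), chrX:54192823-54358642 (WNK3, ENSG00000196632) and chr17:42780678-42796936 (WNK4, ENSG00000126562). Exons of COA3, a factor for cytochrome c oxidase assembly, overlap 816 of the 5089 exon bases of WNK4 on the opposite strand. The strand setting used in counting is not given in the sources used here. The exons of 2 other genes on the opposite strand overlap WNK1 and WNK2 by 77 and 425 bases, and both had 0 counts in all 24 libraries.

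Total counts ran from 14153002 to 25664619 per library, with a median of 21051909.5 in WNK2- Ctr and 16176287.5 in WT Ctr. Of 14 chondrocyte markers, 9 passed the filter on low counts, SOX9 had 0 counts in every library, and SOX6, COL9A1, COL11A1 and CNMD had at most 12. The summed level of these markers was 104 to 161 CPM (counts scaled to library size) in the wild-type-derived libraries and 27.9 to 33.6 in the WNK2- libraries, and HAPLN1 was its largest part in each group. Other markers had another order: the mean level of COL9A3 was 1.85 CPM in WNK2 trans Sor and 4.58 in WNK2- Ctr, and that of COL2A1 9.76 in WNK2 trans Ctr and 1.31 in WNK2 trans Sor. The endothelial sum, led by PECAM1 and CDH5, was 98.7 to 105.8 CPM in WNK2 trans Sor and 22.9 to 66.9 in the other groups. Its members did not move together. CDH5 had a mean level of 50.2 CPM in WNK2 trans Sor and 9.38 in WT Sor, PECAM1 50.4 and 52.7, and VWF 0.62 and 0.76. The part of these differences in the WNK values was not tested, and in such bulk RNA fewer cells of a type and less RNA per cell cannot be told apart.

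One group goes against its label, since WNK2 reads were fewer in WNK2 trans Ctr than in WT Ctr. Every direction drawn from a WNK2 trans group rests on its label, and since the mismatch is between WNK2 trans Ctr and WT Ctr, so does every direction drawn from WT Ctr. Labels were checked within these counts alone. The low WNK2 level of WT Sor was not checked against any other measure, so WNK2 directions drawn from WT Sor rest on its label too. With the WNK2 trans libraries left out, by fitting the compared groups alone, the calls between WT and WNK2- groups were as given below except that WNK1 (0.29) and WNK2 (0.24) gained a call in WNK2- Sor against WT Sor, WNK1 (0.22) and WNK2 (0.43) in WNK2- Ctr against WT Sor, and WNK4 in the genotype interaction (-0.47).

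Levels are given as normalised counts, which are counts scaled from a library's own effective size to the average one. Groups were compared with edgeR's quasi-likelihood test in 15 pairs and 2 interactions. A gene was called at a Benjamini-Hochberg adjusted p under 0.05 over all 16600 tested genes of a comparison. WNK4 was called in 11 of the 15 pairs, WNK2 in 10, and WNK1 and WNK3 in 2 each, where 12.5% to 55.8% of all genes were called per pair. WNK1 was called in 4 pairs with RLE or upper-quartile factors, with DESeq2 or in fits of the compared groups alone, and with a length and GC correction WNK1 was called in 5, WNK2 in 14, WNK3 in 6 and WNK4 in 13. The compared groups alone gave WNK2 in 12 and WNK4 in 10, so the order of these 2 depends on the setting. With 4 genes a count of calls is coarse, so each count of the main fit is read beside the share of all genes called. Shares are from the main fit and do not apply to the alternatives. The length and GC correction also called more of all genes in some pairs, such as 4220 in place of 2499 in WNK2 trans Ctr against WT Sor.

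The sorbitol comparisons called WNK2 and WNK4. In WT cells WNK4 was called higher and WNK2 lower (2 of 4; 24.1% of all tested genes were called). Within the WNK2 trans labels WNK2 and WNK4 were both higher with sorbitol (2 of 4; 48.0%). In WNK2- cells WNK4 alone was called, again higher (1 of 4; 14.9%). The genotype by sorbitol interaction was called for WNK2 (1 of 4; 8.65%), as was the transfection by sorbitol interaction (1 of 4; 35.5%). WNK4 was thus the 1 member with a called rise under each of the 3 WNK2 states.

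Comparisons of cells in the same medium called the same 2 genes and no other member. WNK2- Ctr against WT Ctr called WNK2 lower and WNK4 higher (2 of 4; 42.1%). Under sorbitol, WNK2- against WT called none of the 4, where edgeR called 46.3% of all genes. WNK1 alone had an unadjusted edgeR p under 0.05 there (0.0252). DESeq2 called 1 of the 4, WNK1 (adjusted p = 0.0396), and its share of all genes is not given here. WNK2 trans Ctr against WT Ctr called WNK2 lower (1 of 4; 12.5%), and WNK2 trans Sor against WT Sor called it higher (1 of 4; 31.7%). WNK2- Ctr against WNK2 trans Ctr called WNK2 and WNK4 higher (2 of 4; 47.7%). WNK2- Sor against WNK2 trans Sor called WNK2 lower (1 of 4; 33.3%).

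The remaining 6 pairs differ in both medium and WNK2 state. WNK2 trans Sor against WT Ctr called WNK4 higher (1 of 4; 39.2%), and WNK2 trans Ctr against WT Sor called it lower (1 of 4; 15.1%). WNK2- Sor against WT Ctr called 3 of 4, WNK1 and WNK4 higher and WNK2 lower (51.9%). WNK2- Sor against WNK2 trans Ctr called WNK1, WNK2 and WNK4 higher (3 of 4; 55.8%). WNK2- Ctr against WT Sor called WNK3 and WNK4 lower (2 of 4; 42.0%), and WNK2- Ctr against WNK2 trans Sor called WNK2, WNK3 and WNK4 lower (3 of 4; 37.3%). A count out of 4 genes is too coarse to be set apart from the share of all genes called, so none is read as a result about the family. The plot of differences with their intervals shows all 17 comparisons.

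**Figure D1:**
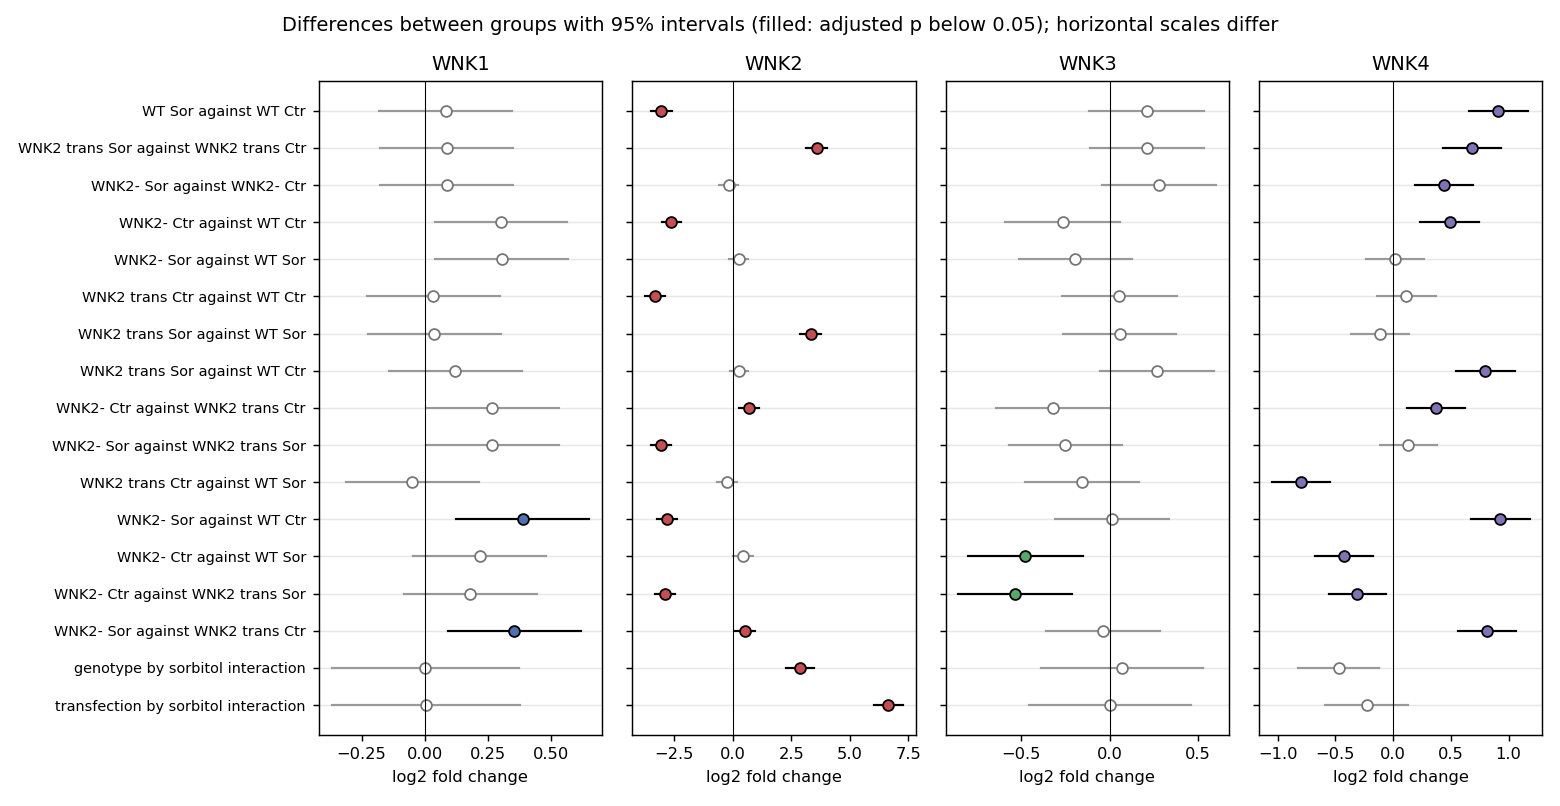
Log2 fold change of each WNK gene (horizontal axis, scales differ between panels) in 15 pairs of groups and 2 interactions, with 95% intervals from edgeR; filled points have an adjusted p under 0.05. WNK2 differences reach 3.59 in pairs and WNK4 differences 0.93, while no WNK1 or WNK3 difference exceeds 0.53 in size.

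WNK2, the deleted and transfected gene, fell into a high and a low class of groups. In WT Ctr the 4 libraries had 3097, 1441, 2133 and 3409 normalised counts (replicates 1 to 4). In WNK2 trans Sor they had 3793, 2245, 2659 and 3433. These 2 groups overlapped, and together they lay above every library of the other 4 groups. WT Sor had 289.6, 319, 318.6 and 283 normalised counts. WNK2 trans Ctr had 296, 238, 183 and 291. Every WNK2 trans Ctr library was below every WT Ctr library, the reverse of what the transfection label says. WNK2- Ctr had 417, 404, 388 and 417 normalised counts. WNK2- Sor had 340.1, 419, 311 and 367. All 8 knockout libraries thus held WNK2 reads, at 311 to 419 normalised counts, and the lowest value of the 24 was in WNK2 trans Ctr replicate 3.

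**Figure D2:**
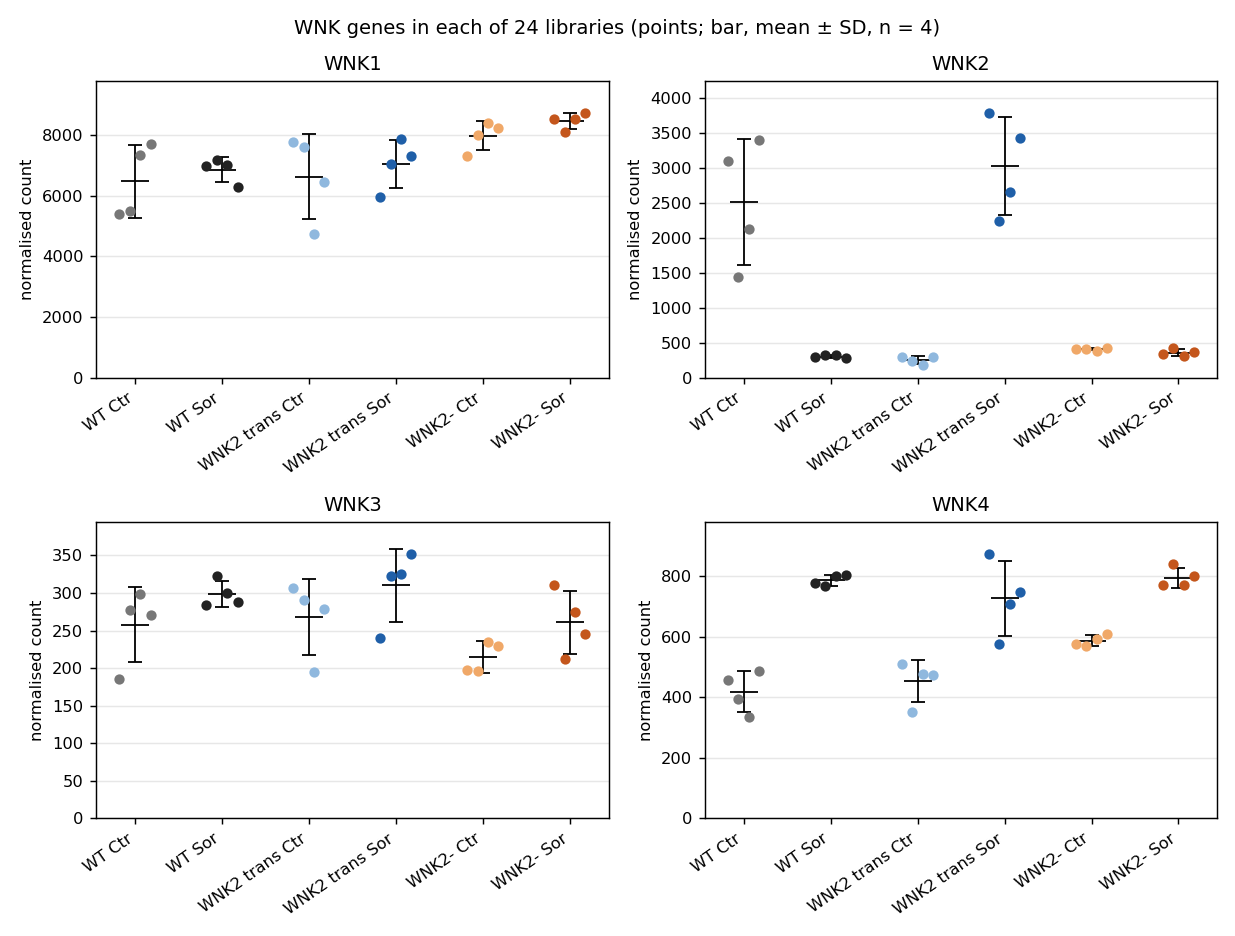
Normalised counts (vertical axis, from 0) of the 4 WNK genes in each library, by group; points are libraries and bars the mean ± SD, n = 4. WNK2 is at 1441 or more in WT Ctr and WNK2 trans Sor and at 419 or less in the other 4 groups, while WNK4 is at 577 or more in every sorbitol library and at 509.9 or less in WT Ctr and WNK2 trans Ctr.

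Ordered by mean, WNK2 stood at 3033 ± 707 (SD, n = 4) in WNK2 trans Sor, 2520.0 ± 901 in WT Ctr, 407 ± 13.9 in WNK2- Ctr, 359 ± 46.1 in WNK2- Sor, 303 ± 19.0 in WT Sor and 252 ± 52.8 in WNK2 trans Ctr. Of the 5 steps between neighbours in that order, edgeR called the one from WT Ctr to WNK2- Ctr. At the top, WNK2 trans Sor exceeded WT Ctr by 0.27 on the log2 scale (95% interval -0.12 to 0.66, adjusted p = 0.274), an interval that holds differences in either direction. Among the 4 low groups, WNK2- Ctr was 1.62-fold and WNK2- Sor 1.43-fold above WNK2 trans Ctr (edgeR adjusted p = 0.00681 and 0.0347). The second of these was lost when WNK2 trans Ctr replicate 2 or 3 or WNK2- Sor replicate 2 or 4 was left out, with log2 fold changes of 0.39 to 0.59 over all leave-outs. WNK2- Ctr lay 0.43 above WT Sor (standard error 0.20, adjusted p = 0.0935) with no overlap between the libraries.

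As labelled, WNK2 differed with sorbitol in opposite directions in WT cells and between the WNK2 trans groups. In WT cells it was 8.33-fold lower with sorbitol (log2 fold change -3.06, standard error 0.21, edgeR adjusted p = 1.52e-10). Between the WNK2 trans labels it was 12.1-fold higher (3.59, standard error 0.22, adjusted p = 7.92e-13). In WNK2- cells the difference was -0.18 (95% interval -0.59 to 0.23), within the spread of the libraries. The genotype by sorbitol interaction was 2.88 (standard error 0.28, adjusted p = 2.77e-07) and the transfection by sorbitol interaction 6.65 (standard error 0.30, adjusted p = 1.04e-14). Both interactions include WT Ctr, and the second also includes WNK2 trans Ctr, so these directions depend on the doubted labels. Across them, WNK2 trans Ctr differed from WT Sor by -0.27 (95% interval -0.69 to 0.16, adjusted p = 0.434) and WNK2 trans Sor from WT Ctr by the 0.27 given above, neither of them called. With the length and GC correction both were called, at -0.31 (adjusted p = 0.0430) and 0.60 (adjusted p = 8.65e-06).

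As labelled, the knockout difference in WNK2 depended on the medium, and so did the sign of the transfection difference. The first rests on the doubted WT Ctr label, and the second also on that of WNK2 trans Ctr. Against WNK2 trans Ctr in place of WT Ctr, WNK2- Ctr was higher by 0.69 (edgeR adjusted p = 0.00681). Without sorbitol, WNK2- had 6.195-fold fewer WNK2 reads than WT (edgeR adjusted p = 1.54e-10). With sorbitol, WNK2- and WT differed by 0.25 (95% interval -0.17 to 0.67, adjusted p = 0.330), and the change of this difference with the medium is the genotype interaction given above. The difference with sorbitol was called in a fit of these 2 groups alone (0.24, adjusted p = 0.0478) and with the length and GC correction (0.63, adjusted p = 1.36e-05). Transfection with sorbitol gave 10.0-fold more WNK2 reads than sorbitol alone (3.33, standard error 0.21, adjusted p = 1.28e-11). Without sorbitol the transfected label had 10.0-fold fewer than WT Ctr (-3.32, standard error 0.21, adjusted p = 3.88e-11). In the pairs that match neither medium nor genotype, WNK2- Sor was 7.004-fold below WT Ctr and WNK2- Ctr 7.46-fold below WNK2 trans Sor.

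The groups also differed in how even their libraries were. The coefficient of variation of WNK2 was 35.8% in WT Ctr and 23.3% in WNK2 trans Sor, 20.96% in WNK2 trans Ctr, 12.8% in WNK2- Sor, 6.28% in WT Sor and 3.41% in WNK2- Ctr. Relative to the variance that counting alone gives, the spread was 267 times as large in WT Ctr, 155 times in WNK2 trans Sor, 9.74 times in WNK2 trans Ctr, 6.81 times in WNK2- Sor, 1.119 times in WT Sor and 0.543 times in WNK2- Ctr. In the last 2 groups the libraries agree within counting noise for this gene.

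WNK4 rose with sorbitol in each of the 3 WNK2 states. Its WT Ctr libraries had 457, 394, 336 and 487 normalised counts. WT Sor had 777, 768, 801 and 805, all above the WT Ctr values. WNK2 trans Ctr had 509.9, 351, 479 and 476. WNK2 trans Sor had 876, 577, 710.2 and 747, with replicate 2 at the low end yet above every WNK2 trans Ctr library. WNK2- Ctr had 575, 569, 594 and 609.8. WNK2- Sor had 771, 842, 772 and 800.2, again with no overlap.

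The sorbitol rise of WNK4 was 1.88-fold in WT (log2 fold change 0.91, standard error 0.12, edgeR adjusted p = 8.73e-06). It was 1.61-fold between the WNK2 trans labels (0.68, standard error 0.12, adjusted p = 6.29e-05) and 1.36-fold in WNK2- cells (0.44, standard error 0.12, adjusted p = 0.0132). The rise in WNK2- cells was smaller than in WT by 0.47 (95% interval -0.83 to -0.12), an interaction with an unadjusted p of 0.0109 and an adjusted p of 0.0868, which misses the threshold. The interaction was called in a fit of the 4 groups alone (adjusted p = 0.0268), and leaving out WT Ctr replicate 4 also gave a call (0.0372). With the length and GC correction it was -0.21 (adjusted p = 0.324, the highest over the alternatives tried). The transfection interaction was -0.23 (95% interval -0.59 to 0.13, adjusted p = 0.320), and after a correction for gene length and GC content it turned to 0.35 (adjusted p = 0.0364).

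Without sorbitol, WNK4 was higher in WNK2- than in WT by 1.40-fold (0.49, standard error 0.12, edgeR adjusted p = 0.00238) and than in WNK2 trans Ctr by 1.30-fold (0.37, adjusted p = 0.0139, lost at 0.0779 without WNK2 trans Ctr replicate 2). With sorbitol, WNK2- and WT differed by 0.02 (95% interval -0.23 to 0.26), and WNK2- and WNK2 trans by 0.13 (95% interval -0.12 to 0.38). The order of the means was WNK2- Sor (796 ± 33.4, SD, n = 4), WT Sor (788 ± 17.6), WNK2 trans Sor (728 ± 123), WNK2- Ctr (587 ± 18.5), WNK2 trans Ctr (454 ± 70.5) and WT Ctr (419 ± 67.1). None of the differences among the 3 sorbitol groups was called, nor that between WNK2 trans Ctr and WT Ctr, and WNK2- Ctr stood between them. With the length and GC correction 2 of these differences were called, WNK2- Sor above WT Sor by 0.31 (adjusted p = 0.00506) and WNK2 trans Sor against WT Sor, which turned from -0.12 to 0.28 (adjusted p = 0.0176). The step from WNK2 trans Sor down to WNK2- Ctr was -0.31 (adjusted p = 0.0471), and it missed the threshold when any of 7 libraries was left out in turn, at -0.20 (adjusted p = 0.194) without WNK2 trans Sor replicate 1.

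COA3, which overlaps WNK4, went the other way in some of these comparisons and not in others. Its mean normalised counts were 1225 ± 306 in WT Ctr, 759 ± 49.4 in WT Sor, 479 ± 49.6 in WNK2- Ctr and 451 ± 43.9 in WNK2- Sor (SD, n = 4). COA3 fell by 0.69 with sorbitol in WT cells (edgeR adjusted p = 0.00185), where WNK4 rose, and was lower by 1.36 in WNK2- Ctr than in WT Ctr (adjusted p = 1.31e-07), where WNK4 was higher. With sorbitol in WNK2- cells, where WNK4 rose, COA3 was at -0.09 (adjusted p = 0.781), and in WNK2- Sor against WT Sor, where WNK4 was at 0.02, COA3 fell by 0.75 (adjusted p = 2.69e-04). The part of shared reads in either gene was not tested.

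WNK1, the broadly expressed member, had the smallest spread of log2 levels of the 4 genes, with a root mean square of 0.23 over the 24 libraries. WT Ctr libraries had 5397, 5496, 7336 and 7695 normalised counts. WT Sor had 6993, 7185, 7018 and 6279. WNK2 trans Ctr had 7766, 7600.2, 4732 and 6443, the widest range of the 6 groups. WNK2 trans Sor had 5959, 7050.4, 7864 and 7322. The wild-type-derived groups all overlapped. WNK2- Ctr had 7308, 7995, 8403 and 8250.1, and WNK2- Sor 8535, 8109, 8541 and 8739.

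Both called differences of WNK1 had WNK2- Sor on the higher side. It exceeded WT Ctr by 1.31-fold (log2 fold change 0.39, standard error 0.13, edgeR adjusted p = 0.0132) and WNK2 trans Ctr by 1.28-fold (0.35, standard error 0.13, adjusted p = 0.0210). The first missed the threshold without WT Ctr replicate 1 (0.30, adjusted p = 0.0616) or replicate 2 (0.30, adjusted p = 0.0646), the second without WNK2 trans Ctr replicate 3 (0.22, adjusted p = 0.107) or replicate 4 (0.32, adjusted p = 0.0633). WNK2- exceeded WT by 0.30 in either medium, with 95% intervals of 0.04 to 0.57, and adjusted p values of 0.0600 without and 0.0536 with sorbitol. With RLE or upper-quartile factors or with DESeq2 both of these passed, at adjusted p values of 0.0359 to 0.0493. With the length and GC correction described at the end, the difference without sorbitol was 0.09 (adjusted p = 0.298) and that with sorbitol 0.19 (adjusted p = 0.0186). The sorbitol differences of WNK1 were 0.08 in WT, 0.09 between the WNK2 trans labels and 0.09 in WNK2- cells, each with a 95% interval from about -0.18 to 0.35 and none called. From the top, the order was WNK2- Sor (8481 ± 266), WNK2- Ctr (7989 ± 484), WNK2 trans Sor (7049 ± 801), WT Sor (6869 ± 402), WNK2 trans Ctr (6635 ± 1399) and WT Ctr (6481 ± 1204), and no step between neighbours was called.

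WNK3, the X-linked member, had the lowest mean normalised count of the 4 genes in 5 of the 6 groups, WNK2 being lower in WNK2 trans Ctr. In WT Ctr the libraries had 186, 277, 299 and 271 normalised counts, and in WT Sor 284, 323, 300.3 and 288. WNK2 trans Ctr had 307, 291, 195 and 279, and WNK2 trans Sor 239, 323, 325 and 353. These 4 groups overlapped. WNK2- Ctr had 197, 196, 235 and 229.9, and WNK2- Sor 310.03, 212, 275 and 246. Every WNK2- Ctr library lay below every library of WT Sor and of WNK2 trans Sor.

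The called differences of WNK3 were those 2. WNK2- Ctr was 1.39-fold below WT Sor (log2 fold change -0.48, standard error 0.16, edgeR adjusted p = 0.0166) and 1.45-fold below WNK2 trans Sor (-0.53, standard error 0.16, adjusted p = 0.00920). Against WT Ctr it was -0.27 (95% interval -0.59 to 0.06, adjusted p = 0.184), and leaving out WT Ctr replicate 1 took it past the threshold (-0.40, adjusted p = 0.0420). Sorbitol differences were 0.21, 0.21 and 0.28 in WT, between the WNK2 trans labels and in WNK2- cells, with none called. The means ran from 310.2 ± 49.0 (SD, n = 4) in WNK2 trans Sor and 299 ± 17.3 in WT Sor through 268 ± 50.3 in WNK2 trans Ctr, 261 ± 41.9 in WNK2- Sor and 258 ± 49.7 in WT Ctr to 215 ± 20.9 in WNK2- Ctr, and no neighbouring step was called. At this depth counting alone gives a coefficient of variation of 5.64% to 6.79% per library.

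Per length, WNK1 led the family in every library. Levels in RPKM, which are counts scaled to exon length and effective library size, were 24.6 ± 4.56 for WNK1, 10.4 ± 3.72 for WNK2, 4.48 ± 0.718 for WNK4 and 1.23 ± 0.236 for WNK3 in WT Ctr (SD, n = 4). In WT Sor they were 26.03 ± 1.53, 1.25 ± 0.0784, 8.43 ± 0.189 and 1.42 ± 0.0822 for the same genes. WNK2 was thus the second gene of the family in WT Ctr while in WT Sor WNK4 was second and WNK2 was below WNK3. Lengths of the longest transcript turned that last order, to 2.11 RPKM for WNK2 and 1.43 for WNK3 in WT Sor. The change of rank rests on the doubted WT Ctr label. By all exon bases, the levels in WNK2 trans Ctr were 25.1 ± 5.30, 1.04 ± 0.218, 4.86 ± 0.754 and 1.27 ± 0.239 for the same genes, the order of WT Sor. In WNK2- Ctr the levels were 30.3 ± 1.84, 1.68 ± 0.0572, 6.28 ± 0.198 and 1.02 ± 0.0993.

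As a share of the summed per-length level of the 4 genes, WNK2 made up 18.4% to 32.8% in WT Ctr and 21.2% to 32.1% in WNK2 trans Sor. It made up 2.81% to 4.71% in the other 16 libraries. WNK4 took 11.2% ± 2.02 in WT Ctr and 22.7% ± 1.35 in WT Sor, and WNK1 60.6% ± 6.42 and 70.1% ± 1.37. In WNK2 trans Ctr, the other label in doubt, WNK4 took 15.5% ± 4.12 and WNK1 77.4% ± 4.18. The summed level was 40.7 ± 7.203 RPKM in WT Ctr and 37.1 ± 1.504 in WT Sor. Without WNK2 it was 30.3 ± 4.73 and 35.9 ± 1.44. In WNK2 trans Ctr the sum was 32.3 ± 5.53, and 31.3 ± 5.36 without WNK2. Whether the WNK1 share and the sum were higher or lower in WT Sor thus depends on the doubted labels. Lengths of the longest transcript in place of all exon bases gave WNK2 a mean share of 31.7% in WT Ctr and of 4.598% in WT Sor.

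**Figure D3:**
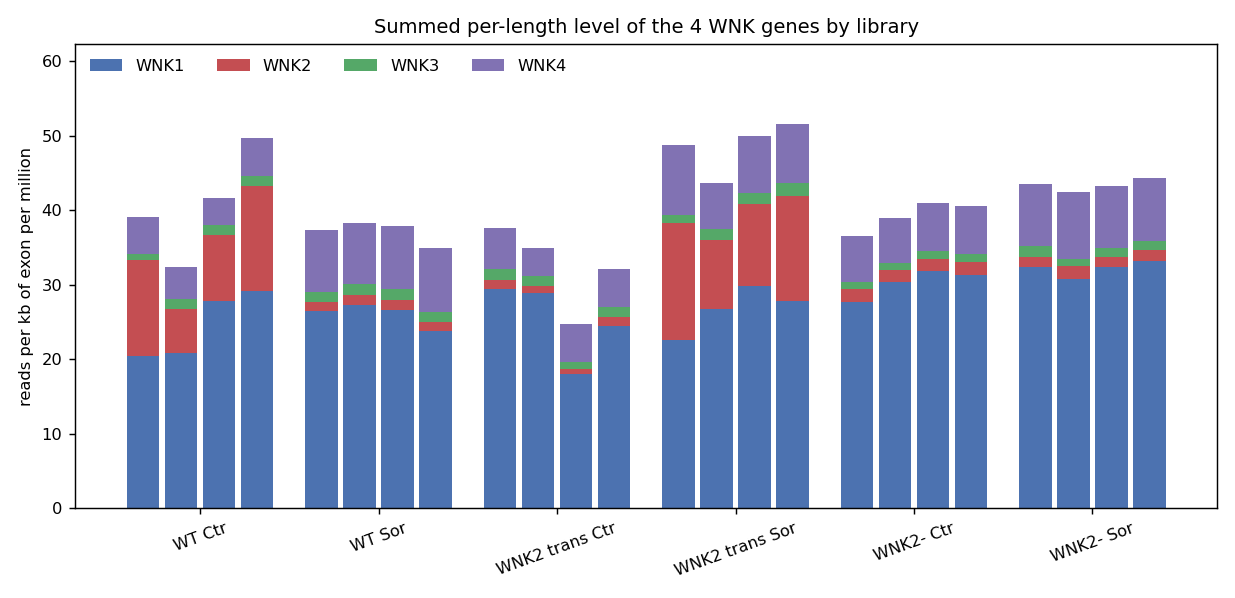
Summed level of the WNK genes in RPKM (vertical axis), stacked by gene, for each library in order of replicate 1 to 4 within the 6 groups. WNK1 is the lowest and largest block in all 24 bars, and the WNK2 block is wide in WT Ctr and WNK2 trans Sor, where it holds 18.4% to 32.8% of the bar.

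The 3 genes with the pattern most like each member's were found by the root mean square difference of log2 CPM, centred on each gene's mean, over the 24 libraries. For WNK2 they were the chemokine genes CXCL1 (0.81) and CXCL8 (0.85), and TMCC3 (0.89), against a root mean square of 1.48 for WNK2 itself. CXCL1 had 1592 mean normalised counts in WT Ctr, 925 in WT Sor, 311 in WNK2 trans Ctr, 2469 in WNK2 trans Sor, 383 in WNK2- Ctr and 489 in WNK2- Sor. Over the 24 libraries 0 genes came within 50% of the spread of WNK2, and over the 6 group means 3 did. For WNK4 they were BFSP1 (0.19), TRIB3 (0.20), a pseudokinase of the stress response, and ZMYND8 (0.21), against 0.40 for WNK4. For WNK1 they were SETD7 (0.09), LAMC1 (0.09) and CLIP1 (0.10), against 0.23. For WNK3 they were SUCO (0.10), CHM (0.10) and MXD1 (0.11), against 0.26.

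Of 16 further genes of the WNK pathway, 14 had enough reads to be tested, KLHL3 and SLC12A3 not. Between the WNK2 trans labels, 7 of the 14 were called higher with sorbitol and 1 lower, where 48.0% of all genes were called, and the median over the list was 0.38. Across the doubted labels, WNK2 trans Sor against WT Ctr called 5 higher and 1 lower (42.9%, beside 39.2% of all genes). STK39, which encodes the WNK target SPAK, was higher by 1.60 between the WNK2 trans labels (standard error 0.10, edgeR adjusted p = 2.04e-12), with a transfection interaction of 1.82 (adjusted p = 3.35e-10). Both depend on the doubted labels, across which the log2 fold change of STK39 was 0.91 in WNK2 trans Sor against WT Ctr and -0.48 in WNK2 trans Ctr against WT Sor, both called. STK39 had 1005 ± 73.3 normalised counts in WT Ctr, 867 ± 43.1 in WT Sor, 621 ± 55.5 in WNK2 trans Ctr, 1890.0 ± 297 in WNK2 trans Sor, 1130.0 ± 36.9 in WNK2- Ctr and 1315 ± 102.5 in WNK2- Sor (SD, n = 4). SGK1, a kinase of ion transport, rose with sorbitol in WT (0.86), between the WNK2 trans labels (0.71) and in WNK2- cells (0.65), as WNK4 did.

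WNK2- Ctr against WT Ctr called 7 of the 14 pathway genes, 4 higher and 3 lower, beside 42.1% of all genes. SLC12A7, which encodes a potassium-chloride exporter, was higher in WNK2- by 1.31 (edgeR adjusted p = 7.99e-09), SLC12A2, the sodium-potassium-chloride importer gene, by 0.53 (adjusted p = 0.0101), and NEDD4L, a ubiquitin ligase gene, by 1.19 (adjusted p = 2.96e-09). In WT cells sorbitol called 3 of the 14 (21.4%, beside 24.1% of all genes): SGK1 and SLC12A5 higher (SLC12A5 by 0.93, adjusted p = 9.13e-04) and CAB39L lower. In WNK2- cells the genes called higher included SGK1 and NEDD4L (NEDD4L by 0.91). The share of the list called lay from 14.3% to 64.3% over the 17 comparisons, and that of all genes from 8.65% to 55.8%.

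As labelled, WNK4 and WNK2 lay at the edge of the genes around them in WNK2- Ctr against WT Ctr. Within 1 Mb of WNK4, 55 genes were tested, and in WNK2- Ctr against WT Ctr their median was -0.55, with 3 called higher and 37 lower, while WNK4 was at 0.49. Of all 16600 genes, 3435 were called higher and 3561 lower in that comparison. Only 5 of the 55 had a higher log2 fold change than WNK4. Under sorbitol the median was -0.53 (2 higher, 32 lower, beside 3928 higher and 3762 lower of all genes) and WNK4 was at 0.02. Around WNK2, 17 genes had a median of 0.31 in WNK2- Ctr against WT Ctr, with 8 higher and 1 lower, and all 17 lay above WNK2 at -2.63. Under sorbitol WNK2, at 0.25, lay among them, with 7 above and 10 below. Around WNK1 and WNK3 the medians without sorbitol were 0.21 (12 genes) and 0.06 (16 genes). The positions of WNK2 and WNK4 without sorbitol were taken against the doubted WT Ctr label. In WNK2- Ctr against WNK2 trans Ctr, WNK4 was at 0.37 and the median around it was -0.68 (2 higher, 32 lower). WNK2 was at 0.69 in that pair and the median around it was 0.28 (7 higher, 0 lower). Of all genes, 3988 were called higher and 3936 lower there. WNK4 thus lay above the median of its neighbours against either label, while WNK2 lay below it against WT Ctr and above it against WNK2 trans Ctr. The genes around WNK2 and WNK4 were not ranked against WNK2 trans Ctr.

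**Figure D4:**
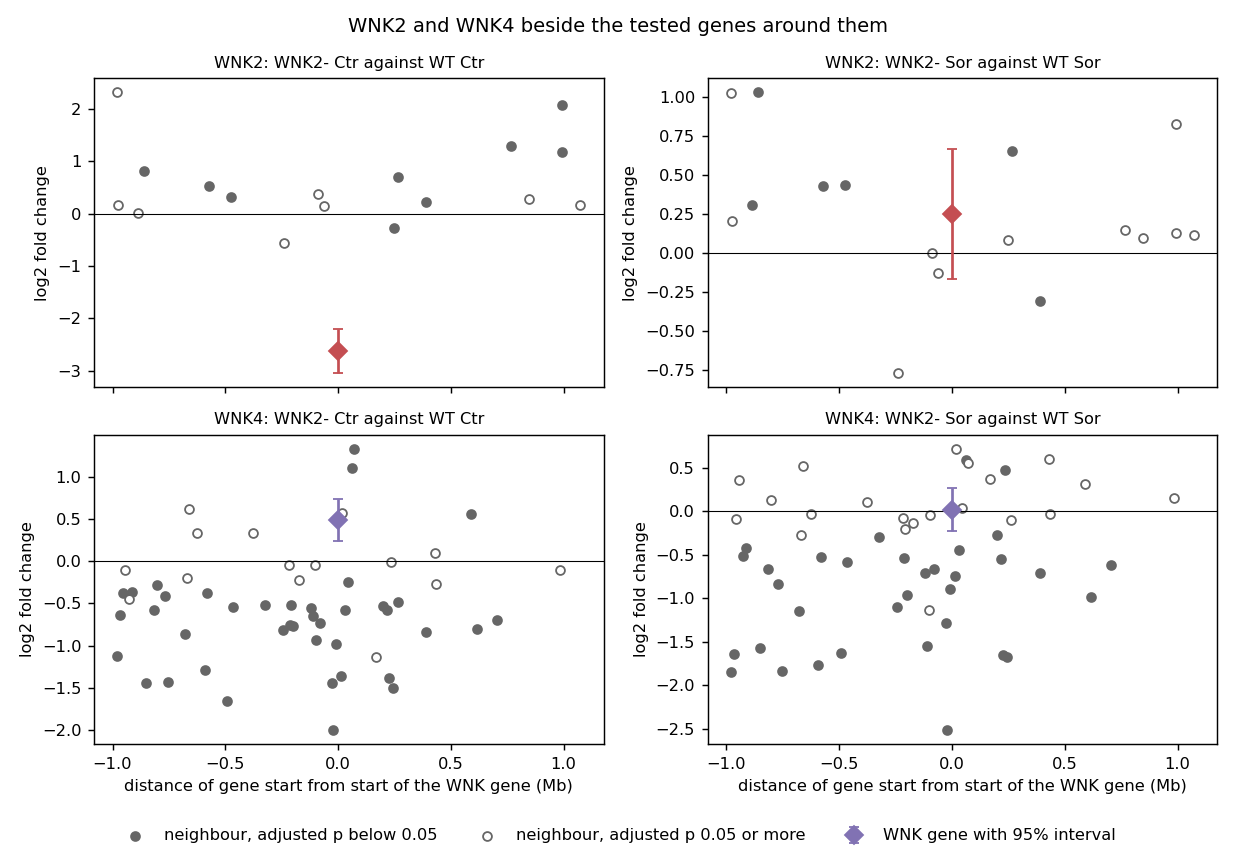
Log2 fold change (vertical axis) of WNK2 (top) and WNK4 (bottom), as diamonds with 95% intervals, and of the tested genes within 1 Mb, by distance of their start in Mb (horizontal axis), for WNK2- against WT without (left) and with sorbitol (right). WNK2 lies below all 17 neighbours on the left and among them on the right, and WNK4 lies above 50 of 55 on the left. The left panels rest on the doubted WT Ctr label.

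WNK1 and WNK3 varied within groups together with other long genes. The longest transcripts of WNK1 and WNK3 have 11804 and 11341 bases, those of WNK2 and WNK4 7792 and 4001. For each library the deviation from its group mean was taken for each gene and as the median over the 626 tested genes with a transcript of at least 10000 bases. WNK1 deviated in the same direction as that median in 22 of 24 libraries and WNK3 in 21, against 12 for WNK2 and 11 for WNK4. WNK2 trans Ctr replicate 3 had the lowest median (-0.36), and WNK1 (-0.46) and WNK3 (-0.44) were low there too. WNK2 trans Sor replicate 1 (-0.28) and WT Ctr replicate 1 (-0.21) came next, with WNK3 at -0.36 and -0.45.

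**Figure D5:**
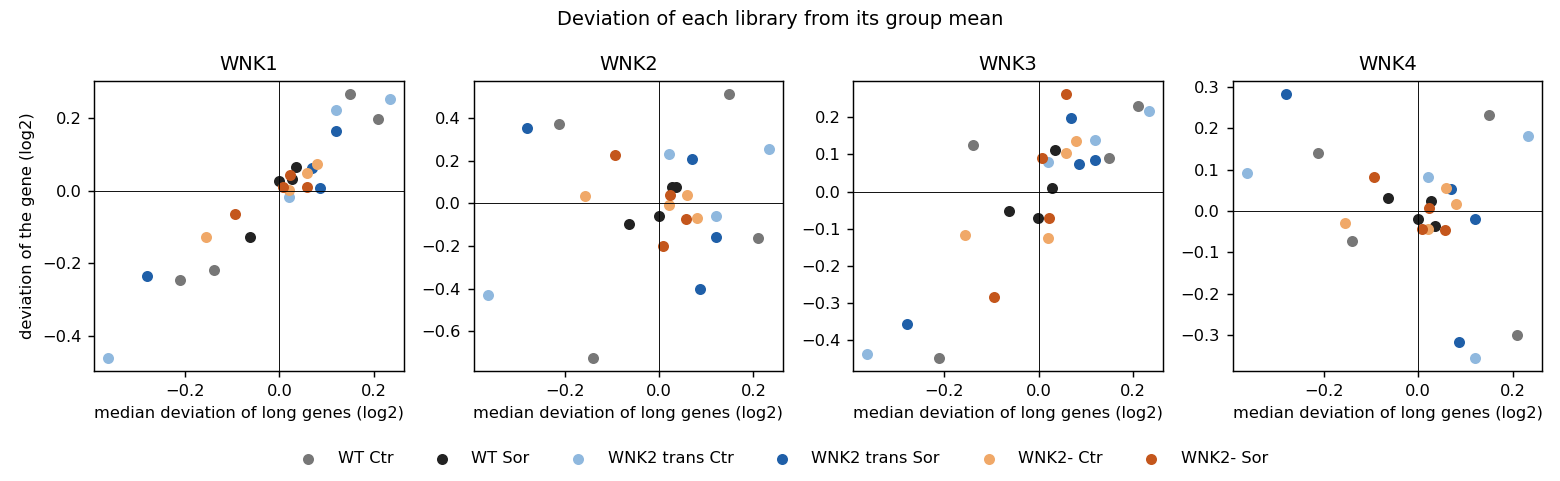
Deviation of each library from its group mean on the log2 scale, for the median of 626 long genes (horizontal axis) and for each WNK gene (vertical axis, scales differ), with colours for the 6 groups. WNK1 and WNK3 points run from lower left to upper right, while WNK2 and WNK4 points do not follow that line.

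Long genes also differed between groups. With WNK1 and WNK3 left out, the median of 624 long genes was 0.21 in WNK2- Sor against WT Ctr, where WNK1 was at 0.39, and 0.14 in WNK2- Sor against WNK2 trans Ctr, where WNK1 was at 0.35. Once the trends of the libraries with length and GC content were taken out, chosen after the data were seen, these WNK1 differences were 0.17 (adjusted p = 0.0346) and 0.19 (adjusted p = 0.0162) in edgeR, both still called at a smaller size. This correction left the direction and call of WNK2 and WNK4 with sorbitol in WT as they were, at -3.31 and 0.78. It moved the WNK4 rise between the WNK2 trans labels from 0.68 to 1.14. In other pairs the long genes did not go along with the members. Their median was 0.07 in WNK2- Ctr against WT Sor and -0.02 against WNK2 trans Sor, where WNK3 was at -0.48 and -0.53. In WNK2- Sor against WNK2 trans Sor it was 0.005, where WNK1 was at 0.27.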

How the data were processed

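The authors deposited raw read counts per Ensembl gene, 1 file per library. Per the submitters' processing notes, HISAT2 2.2.1, HTSeq 2.0.2 and GRCh38 were used; the annotation is not given in the sources used here. Groups follow the labels, and the methods call the 4 libraries of a group biological replicates. Counts of 24 libraries were fitted in R 4.3.3 with edgeR 4.0.16 (filterByExpr, minimum count 10 and total 15, TMM factors, 6 group means, quasi-likelihood test, Benjamini-Hochberg adjustment). Standard errors are the log2 fold change over the root of F, and intervals are 95%. Symbols matched 62625 of 62703 identifiers; positions and lengths are from GENCODE 29. The test was checked on simulated data, and the outcome is not given here. The members and lists were chosen with earlier results of these data known. Named genes are the 4 WNK genes, 16 pathway genes where called, the 3 nearest patterns per member, and overlapping genes; 1 pathway gene is counted but not reported by name here. WNK2 trans Ctr goes against its label, and no library was left out.

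Alternatives were DESeq2 1.42.0, RLE and upper-quartile factors, no filter, the compared groups alone, a replicate block, each library left out in turn, and, chosen after the data were seen, a length and GC correction (splines with 5 degrees of freedom) on the 15980 of 16600 tested genes with both values.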

Additional observations from a re-analysis of the deposited data

Results flagged for a closer look

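WNK2 is listed here for a difference between groups in its response to sorbitol. Its sorbitol difference was -3.06 in WT and -0.18 in WNK2- cells, an interaction of 2.88 on the log2 scale (edgeR adjusted p = 2.77e-07). Between the WNK2 trans labels its sorbitol difference was 3.59, an interaction of 6.65 with WT (adjusted p = 1.04e-14). In WT every sorbitol library was below every control library, and between the WNK2 trans labels every sorbitol library was above. Both interactions rest on the WT Ctr label and the second also on that of WNK2 trans Ctr, the 2 labels between which WNK2 reads are the reverse of what transfection says. In the 24 combinations of gene and group, 0 libraries stood apart from the other 3 by Dixon's test at its 95% critical value, where chance alone gives about 1 in 20.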

How the results depend on the processing

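Of 68 results (4 genes, 17 comparisons), 45 kept their side of the threshold under every alternative and 23 did not. Of the 45, the 22 called ones also kept their sign, and 17 of the 23 that were not called changed sign in at least 1 alternative. The cause of the changes was not tested. Taking the replicate number as a block (replicate block) changed 0 of the 68, with WNK2 at -3.01 and WNK4 at 0.92 for sorbitol in WT. The numbers were not taken to pair the samples, since not every same-numbered pair correlated above 0.1, a rule that is hard to meet. Over 60 same-numbered pairs of libraries the deviations correlated from -0.29 to 0.46 (median 0.01), with 10 above 0.1. Over 180 differently numbered pairs from different groups they correlated from -0.317 to 0.395 (median 0.001), with 24 above 0.1. Of 24 libraries, 11 correlated best with their own number among 4. A weaker pairing was not tested.

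Gained calls of WNK1 were WNK2- Ctr against WT Ctr (0.31 with RLE, 0.32 with upper-quartile factors, 0.32 with DESeq2) and WNK2- Sor against WT Sor (0.33 with RLE, 0.33 with upper-quartile factors, 0.33 with DESeq2). In fits of the compared groups alone, WNK2- Sor against WT Sor was called for WNK1 (0.29) and WNK2 (0.24), WNK2- Ctr against WT Sor for WNK1 (0.22) and WNK2 (0.43), and the genotype interaction for WNK4 (-0.47), while WNK4 in WNK2- Ctr against WNK2 trans Sor was lost (-0.32; also without a filter, -0.30).

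The length and GC correction also raised the count over all genes in some comparisons, as given below. The share of all genes that it called in each comparison is not given here. The correction turned 2 results of WNK4, WNK2 trans Sor against WT Sor (0.28) and the transfection interaction (0.35). It added calls in WNK2- Sor against WT Sor for WNK1 (0.19), WNK2 (0.63), WNK3 (-0.28) and WNK4 (0.31). Others added were WNK1 in WNK2- Sor against WNK2 trans Sor (0.26) and in WNK2- Ctr against WNK2 trans Sor (0.18), WNK2 in WNK2 trans Sor against WT Ctr (0.60), WNK2 trans Ctr against WT Sor (-0.31) and WNK2- Ctr against WT Sor (0.61), and WNK3 in WNK2- Sor against WNK2- Ctr (0.27), WNK2- Ctr against WT Ctr (-0.34) and WNK2- Ctr against WNK2 trans Ctr (-0.42). Of called values it moved by over 1.5 times, WNK4 went to 0.60 in WNK2- Ctr against WNK2 trans Ctr, -0.54 against WNK2 trans Sor and -0.26 against WT Sor, WNK4 to 1.14 for sorbitol between the WNK2 trans labels, WNK2 to 0.94 in WNK2- Sor against WNK2 trans Ctr, and WNK1 to 0.17 in WNK2- Sor against WT Ctr and 0.19 against WNK2 trans Ctr.

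With each library left out in turn, results that changed ranged as follows. WNK1 was 0.22 to 0.40 in WNK2- Ctr against WT Ctr, 0.30 to 0.47 in WNK2- Sor against WT Ctr, 0.14 to 0.35 in WNK2- Ctr against WNK2 trans Ctr and 0.22 to 0.42 in WNK2- Sor against WNK2 trans Ctr. WNK2 was 0.39 to 0.59 in WNK2- Sor against WNK2 trans Ctr. WNK3 was -0.40 to -0.18 in WNK2- Ctr against WT Ctr and -0.45 to -0.25 against WNK2 trans Ctr. WNK4 was 0.27 to 0.43 in WNK2- Ctr against WNK2 trans Ctr, -0.41 to -0.20 against WNK2 trans Sor and -0.57 to -0.40 in the genotype interaction.

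Counts over all genes that moved by over 1.5 times were WNK2- Sor against WNK2- Ctr (2473, to 4824 with the compared groups alone and 4077 with the correction), WNK2 trans Ctr against WT Ctr (2082, to 747 and 3178), WNK2 trans Sor against WT Ctr (6509, to 3018 with the compared groups alone), WNK2 trans Ctr against WT Sor (2499, to 4220 with the correction) and the genotype interaction (1436, to 2321 with the correction and 849 to 1908 with a library left out). Of the 14 pathway genes, calls moved with the correction from 3 to 6 for sorbitol in WT, from 3 to 5 in WNK2 trans Ctr against WT Ctr and from 4 to 9 in WNK2 trans Ctr against WT Sor. With the compared groups alone they moved from 3 to 7 for sorbitol in WNK2- cells, from 6 to 3 in WNK2 trans Sor against WT Ctr and from 4 to 7 in WNK2 trans Ctr against WT Sor. For the genotype interaction they went from 2 to 1 (no filter, replicate block) or 4 (compared groups alone, DESeq2, correction), and for the transfection interaction from 4 to 7 (upper-quartile factors) or 8 (DESeq2). Counting noise was up to 6.79% of the mean for WNK3 and 6.51% for WNK2.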
